A study of Mus musculus with 2116 samples.

Results

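The mRNAs of 10 cytokine receptor chains were followed in single CD4+ T cells of the mouse spleen, measured by inDrops, a droplet method that tags each captured mRNA with a unique molecular identifier (UMI). The chains were listed by name, with no threshold on their values. They and the gene lists used below were chosen with earlier results of these data known. The chains were Il7r, Il4ra, Il21r, Il6ra, Il6st, Il27ra, Il10ra, Ifngr1, Il18r1 and Il1rl1, and all 10 were found among the 23725 genes counted. Regulatory T cells (Treg, Foxp3+) were set against conventional T cells (Tconv, Foxp3-). Both populations came from spleens of male B6 mice aged 8 months that carried the Foxp3-Ires-Gfp reporter, in which the Foxp3 locus drives green fluorescent protein, and both were sorted as DAPI-, TCRb+ and CD4+ cells. The sort text names GFP+ cells for both, so the identity of the groups rests on the sample titles read with the series title. Each population was 1 library, with 816 Treg cells and 1300 Tconv cells, and the number of mice behind each is not named. Differences between the libraries therefore have no replicate check and no p-value, and every interval below is a 95% interval for counting error only.

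Depth and purity set what these libraries can show. The Treg library held 1468203 UMIs, with a median of 1688.5 per cell, and the Tconv library held 2002752 UMIs, with a median of 1510.5 per cell. Treg cells were read more deeply, with a median of 53154 mapped reads per cell in the labels, against 28462.5 for Tconv cells, and below, equal depth means equal UMIs per cell and not equal reads. Foxp3, which defines Treg cells, was found in 25.7% of Treg cells and 0.451% of Tconv cells after each cell was thinned to 1000 UMIs, which left out the 9.56% of Treg cells and 14.8% of Tconv cells that were shallower. All 7 T cell genes measured (Cd3e, Cd3d, Cd3g, Cd4, Lck, Cd28 and Cd5) were within 2-fold between the libraries, with a median log2 ratio of -0.19. Cells with 3 or more UMIs of a marker list of another blood cell type numbered 50 in Treg (6.13%) and 28 in Tconv (2.15%). The 10 B cell genes matched summed to 684.5 counts per 1000000 UMIs (CPM) in Treg and 179.3 CPM in Tconv, with Pax5 at 0 in both libraries, and the highest Treg cell held more of them than the 69 UMIs of the highest Tconv cell. The 15 myeloid genes summed to 508.8 CPM in Treg and 286.6 CPM in Tconv; C1qa, C1qb and Cd5l were at 0 in Tconv, and S100a8 and S100a9 at 0 in Treg. The same 12 cell barcodes occurred in each library.

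Cytokine receptors are built from a private chain that binds 1 ligand or a few and a shared chain that completes the signalling complex. The IL-7, IL-4, IL-21 and IL-2 receptors share the common gamma chain Il2rg and signal through JAK1 and JAK3, IL-7 and IL-2 mainly to STAT5, IL-4 to STAT6 and IL-21 to STAT3. The IL-6 and IL-27 receptors share gp130, the product of Il6st. The IL-10 and interferon gamma receptors are type II cytokine receptors, and the IL-18 and IL-33 receptors belong to the IL-1 receptor family and signal through MyD88 instead of JAKs. IL-7 keeps naive and memory T cells alive, and a low level of its receptor chain, CD127, together with a high level of the IL-2 receptor alpha chain, CD25, is commonly used to sort Treg cells.

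The genes lie at these places in GRCm38. Il7r is at chr15:9505788-9530176 on the minus strand and Ifngr1 at chr10:19591949-19610229 on the plus strand. Il10ra is at chr9:45253837-45269149 and Il6ra at chr3:89864059-89913196, both on the minus strand. Il6st is at chr13:112464070-112510086 on the plus strand. Il4ra, at chr7:125552120-125579474, and Il21r, at chr7:125603429-125633570, are neighbours on the plus strand, 23954 bases apart. Il1rl1, at chr1:40429570-40465415, lies directly before Il18r1, at chr1:40465552-40500854, on the same plus strand. Il27ra, at chr8:84030294-84042589 on the minus strand, overlaps the protein-coding gene Palm3 on the plus strand. Il4ra and Il6ra overlap antisense genes, and Il10ra overlaps a processed pseudogene on the other strand and a miRNA gene. Whether the counting used strand is not given in the sources used here, so the UMIs of these 4 genes are uncertain to that extent.

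Upstream sequence is shown for Il7r, the member that was lower in Treg, for Ifngr1, a member that was higher, and for Il6ra, whose interval spanned equality. RefSeq start sites (GRCm38.p6) were matched for 8 of the 10 members, Il10ra and Il27ra being the others. The 250 bases before each start were searched on both strands for CAGGAAG (a form of the ETS motif), TGTGGTT (RUNX), GTAAACA (FOXO) and TTCNNNGAA (GAS, the motif of STAT proteins), and capitals mark a match. Each line reads 5′ to 3′ along the gene's strand and ends at the last base before the start site; for Il7r it is chr15:9529877-9530040 on the minus strand, within the GENCODE span given above and without the bases that lie in an annotated exon, for Ifngr1 chr10:19591699-19591948 on the plus strand and for Il6ra chr3:89913197-89913446 on the minus strand.
Il7r: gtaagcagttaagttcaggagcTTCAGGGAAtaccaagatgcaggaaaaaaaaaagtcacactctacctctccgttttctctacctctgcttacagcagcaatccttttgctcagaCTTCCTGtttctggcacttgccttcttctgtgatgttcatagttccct
Ifngr1: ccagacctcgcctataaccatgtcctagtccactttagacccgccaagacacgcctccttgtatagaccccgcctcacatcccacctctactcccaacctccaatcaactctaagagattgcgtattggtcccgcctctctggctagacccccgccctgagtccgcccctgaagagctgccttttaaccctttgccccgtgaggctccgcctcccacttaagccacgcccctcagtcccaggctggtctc
Il6ra: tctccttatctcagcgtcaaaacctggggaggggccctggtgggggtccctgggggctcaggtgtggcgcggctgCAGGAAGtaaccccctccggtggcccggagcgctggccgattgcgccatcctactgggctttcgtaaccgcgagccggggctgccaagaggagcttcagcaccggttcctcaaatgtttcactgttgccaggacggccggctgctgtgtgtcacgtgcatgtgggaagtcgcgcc
In Il7r an ETS match, read on the other strand, begins 48 bases before the start with a GAS match farther upstream, and Il6ra holds an ETS match in the distal portion of its window. Ifngr1 had no match in its 250 bases. Among the 8 matched members, with 11 start sites, ETS matches were held by 2 members and GAS matches by 2 (Il7r and Il18r1). FOXO matches were held by 2 (Il21r and Il1rl1) and RUNX matches by 0. Of 32851 single promoter windows of the same length, 10.8% held an ETS match, 7.02% GAS, 3.17% FOXO and 4.40% RUNX. A member counted if any of its start sites had a match, so the counts and these percents are in unlike units. These are matches of letters and not measured binding.

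Il7r encodes the IL-7 receptor alpha chain, CD127. Its level was 81.7 CPM in the Treg library (67.8 to 97.7), from 120 UMIs, and 272.6 CPM in the Tconv library (250.2 to 296.5). Il7r was thus 3.34-fold lower in Treg (2.73 to 4.10), a log2 ratio of -1.74 (-2.04 to -1.45). The median log2 ratio over the 8988 genes that reached 20 UMIs when the libraries were added was 0.14, a shift of the scale that falls to 0.01 when the genes of ribosomal proteins are not counted in the totals and to -0.02 with TMM factors. Relative to that median, Il7r was at -1.88. In library sums, fewer cells of a type and less RNA per cell cannot be told apart.

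The share of cells with Il7r detected was lower in Treg as well, as a lower sum would give at so few UMIs per cell. At least 1 UMI was seen in 61 Treg cells, which is 7.48% of them (5.77 to 9.50%), and in 23.5% of Tconv cells (21.3 to 25.9%). At an equal number of 1000 UMIs per cell the shares were 5.15% in Treg (3.67 to 7.0%) and 18.1% in Tconv (15.8 to 20.4%). Genes of B cells give the background at that depth: Cd79a, which T cells should lack, was found in 1.63% of Treg cells and 0.542% of Tconv cells, and Cd74 in 4.07% (2.76 to 5.75%) and 0.903%. The Il7r share in Treg lay above that of Cd79a, and its interval overlapped that of Cd74. The Il7r share in Tconv lay above both.

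Most cells with Il7r held a single UMI, and a mean over detecting cells cannot fall below 1. Detecting cells held on average 1.97 UMIs in Treg, against 1.78 in Tconv, and 1.71 against 1.54 UMIs after thinning, with a highest cell of 8 UMIs in each library. A small number of cells carried much of the Treg sum: 14 cells with 3 or more UMIs held 55.8% of the Il7r UMIs of the Treg library, against 61 cells with 43.04% in Tconv. The variance of Il7r UMIs over cells was 3.37 times their mean in Treg and 2.23 times in Tconv. UMIs that clump in cells make the counting intervals too narrow.

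**Figure D1:**
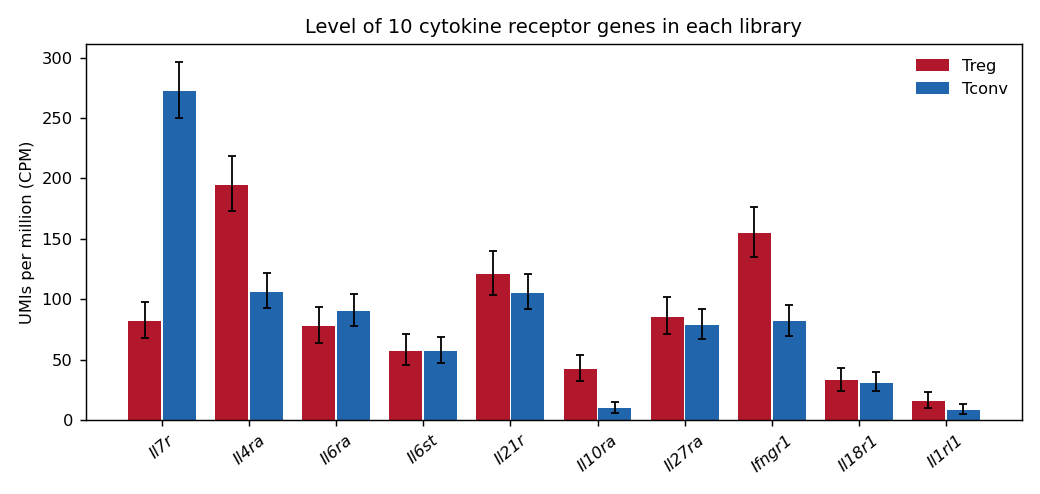
Levels of the 10 receptor genes in CPM, with the Treg library left of the Tconv library for each gene; lines are 95% Poisson intervals for counting error only, with 1 library per group. Il7r sits at 81.7 CPM in Treg and 272.6 CPM in Tconv, and Il4ra, Ifngr1 and Il10ra sit higher in Treg.

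Differences of 2-fold or more were found for 2 of the 10 chains. Il10ra was the only member at least 2-fold higher in Treg, against 8.61% of the 8988 genes, and Il7r the only member at least 2-fold lower, against 3.6%. With 10 members, 1 in each direction is near those background shares, so the count is not a result about the receptors as a group. The interval lay above equality for Il4ra, Il10ra and Ifngr1, below it for Il7r, and included it for the other 6. The median log2 ratio of the 10 was 0.15, against 0.14 for all genes, and their UMIs summed to 862.3 CPM in Treg and 840.8 CPM in Tconv.

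Of the other chains that pair with the common gamma chain, Il4ra encodes the IL-4 receptor alpha chain, which also serves IL-13. It stood at 194.8 CPM in Treg (172.9 to 218.7) and 106.4 CPM in Tconv (92.5 to 121.6), which is 1.83-fold higher in Treg (1.53 to 2.20). At equal depth it was found in 15.7% of Treg cells and 9.57% of Tconv cells, and the highest cell held 8 UMIs in Treg and 4 in Tconv. More cells and more UMIs per cell both went with the higher Treg sum: 25 Treg cells had 3 or more UMIs, against 8 Tconv cells. Il21r, which encodes the IL-21 receptor, was at 120.6 CPM in Treg and 105.4 CPM in Tconv, and its log2 ratio of 0.19 (-0.10 to 0.49) was close to the median of all genes. Its shares at equal depth were 10.4% of Treg cells and 8.75% of Tconv cells. Il4ra and its neighbour Il21r thus had unequal ratios, with intervals that did not overlap.

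The gp130 group showed no separation at this depth. Il6st, the gp130 chain itself, was at 57.2 CPM in Treg and 56.9 CPM in Tconv, for a log2 ratio of 0.01 (-0.42 to 0.43). Il6ra, which binds IL-6, was at 77.6 CPM in Treg and 90.4 CPM in Tconv, for a log2 ratio of -0.22 (-0.57 to 0.13). Cells thinned to 1000 UMIs, without the shallower ones, gave 0.21, and 7.18% of thinned Treg cells and 7.401% of thinned Tconv cells held it. The highest cell held 6 UMIs in Treg and 3 in Tconv. Il27ra, which binds IL-27, was at 85.1 CPM in Treg and 78.9 CPM in Tconv, for a log2 ratio of 0.11 (-0.24 to 0.46). A 2-fold difference in either direction lies outside the interval of all 3 genes, while differences inside these intervals could not be told from equality.

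Il10ra and Ifngr1, the type II receptor chains among the members, were higher in Treg. Il10ra, the ligand-binding chain of the IL-10 receptor, was at 42.2 CPM in Treg (32.4 to 54.1), from 62 UMIs, and 9.49 CPM in Tconv (5.71 to 14.8), from 19, which is 4.45-fold higher in Treg (2.63 to 7.88). It was found in 36 Treg cells and 15 Tconv cells, or 3.12% (1.99 to 4.64%) and 0.903% (0.434 to 1.65%) at equal depth. The Tconv share includes the 0.542% of Cd79a within its interval, so Il10ra in Tconv was not separable from background RNA. The Treg share lay above that of Cd79a in Treg and below the 4.07% of Cd74. Ifngr1, the ligand-binding chain of the interferon gamma receptor, was at 154.6 CPM in Treg (135.2 to 176.1) and 81.9 CPM in Tconv (69.8 to 95.4), which is 1.89-fold higher in Treg (1.54 to 2.32). It was found in 12.2% of thinned Treg cells and 7.13% of thinned Tconv cells. Its tail of high cells differed too without thinning, with 19 Treg cells at 3 or more UMIs and a highest cell of 10. In Tconv there were 4 such cells and a highest cell of 3.

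B cells and myeloid cells also express Il4ra, Il10ra and Ifngr1, and their marker genes were more abundant in the Treg library. With the 50 Treg cells and 28 Tconv cells of other types left out, the log2 ratios were 0.88 for Il4ra, 2.12 for Il10ra and 0.91 for Ifngr1, against 0.87, 2.15 and 0.92 over all cells. The differences were thus nearly the same size without those cells. Il7r was at -1.75 without them, and at -1.72 without the 12 cells of each library that shared a barcode.

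The IL-1 receptor family members were sparse. Il18r1, the ligand-binding chain of the IL-18 receptor, was at 32.7 CPM in Treg, from 48 UMIs, and 30.96 CPM in Tconv, from 62, for a log2 ratio of 0.08 (-0.50 to 0.65). Il1rl1, which encodes the IL-33 receptor ST2, had 23 UMIs in 20 Treg cells (15.7 CPM) and 16 UMIs in 16 Tconv cells (7.99 CPM). Its log2 ratio of 0.97 had an interval of -0.01 to 1.99, which includes equality. At equal depth Il1rl1 was found in 11 Treg cells (1.49%, 0.746 to 2.65%) and 4 Tconv cells (0.361%, 0.0984 to 0.922%), and the Tconv interval takes in the 0.542% seen for Cd79a. The Treg share was at the level of Cd79a in Treg, so single cells with Il1rl1 could not be told from background RNA. ST2 is known on a tissue-adapted subset of Treg cells.

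**Figure D2:**
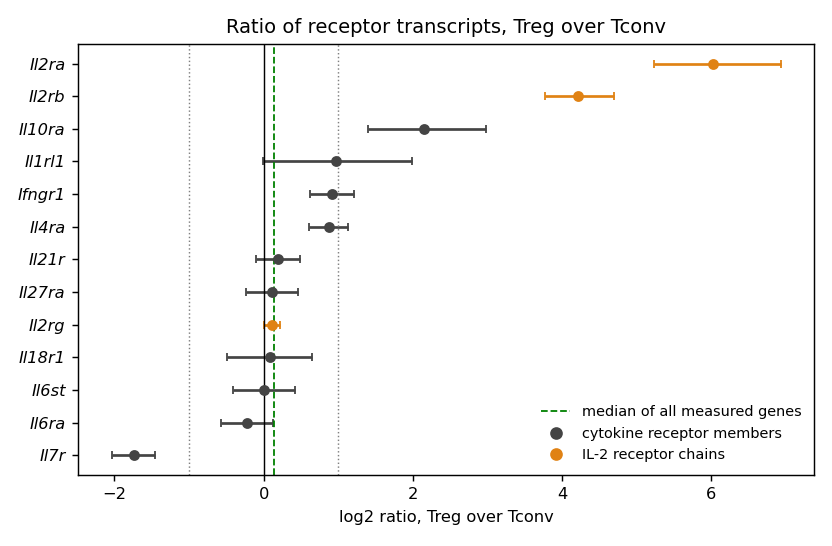
Log2 ratio of Treg over Tconv for each receptor gene and the IL-2 receptor chains, with exact conditional 95% intervals for counting error only and the median of all measured genes as a line. Il7r lies at -1.74 and Il10ra at 2.15, and the intervals of 6 members include 0.

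Spread over single cells, the 10 chains were seldom seen together at this depth. After thinning, 48.2% of Treg cells and 49.2% of Tconv cells had no UMI of any member. A single member was found in 35.8% of Treg cells and 37.3% of Tconv cells, 2 members in 12.9% and 11.5%, and 3 or more in 3.12% (1.99 to 4.64%) and 2.08% (1.32 to 3.10%). The most in a cell was 4 members in Treg and 5 in Tconv. A cell without a UMI of a receptor may still express it, since each thinned cell was sampled at 1000 UMIs only.

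**Figure D3:**
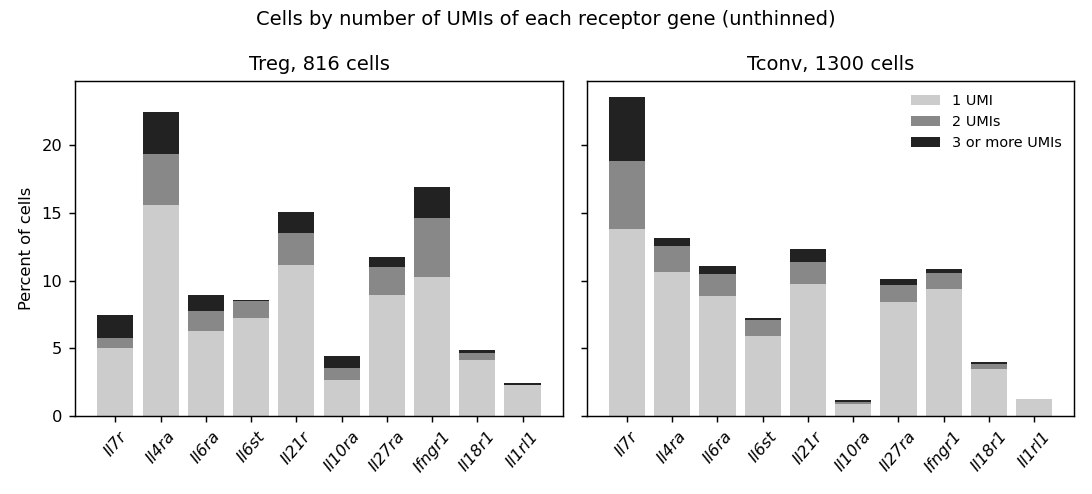
Cells of each library by the number of UMIs of each receptor gene, as a percent of cells, with Treg left of Tconv. Il7r was found in 7.48% of Treg cells and 23.5% of Tconv cells, and most detecting cells of each gene held 1 UMI.

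Members found in the same cell were counted against the product of their separate shares, which is the number of cells expected if detections were unrelated. Over the 45 pairs of members, cells with both summed to 1.08 times the product in Treg and 1.01 times the product in Tconv. Pearson's r on log values ran from -0.09 to 0.17 over the pairs in the 738 thinned Treg cells and from -0.04 to 0.09 in the thinned Tconv cells, with a median of 0.00 in each. All points of a library share its depth, and such weak values in sparse counts are no finding. The top value in Treg, for Il7r with Il1rl1, rested on 3 cells with both.

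The IL-2 receptor chains were split between the libraries. Il2ra, which encodes CD25, was at 419.6 CPM in Treg and 6.49 CPM in Tconv (log2 ratio 6.01, 5.23 to 6.93). Il2rb, whose product also serves the IL-15 receptor, was at 407.3 CPM in Treg and 21.97 CPM in Tconv, for a log2 ratio of 4.21 (3.77 to 4.69). Il2rg, with which Il7r also pairs, was at 821.4 CPM in Treg and 761.5 CPM in Tconv, for a log2 ratio of 0.11 (-0.00 to 0.22) that turned to -0.02 without ribosomal protein genes in the totals and to -0.05 with TMM factors.

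Within the Treg library, the relation of Il7r to the private IL-2 receptor chains was not settled at this depth. Il7r was detected in 4.92% of thinned Treg cells with Il2ra (2.27 to 9.13%) and 5.23% of those without it (3.53 to 7.42%), and 9 cells had both, against a product of 9.42. The sums were 125.7 CPM in cells with Il2ra and 75.7 CPM in cells without, a log2 ratio of 0.73 (-0.07 to 1.5). This value rested on few cells: without the single cell that held 7 Il7r UMIs it was 0.22 (-0.71 to 1.08), and with cells thinned to 500 UMIs it was -1.48 on 2 and 34 Il7r UMIs. Another thinning draw gave 0.89 with an interval above equality (0.13 to 1.63), so whether the interval for Il2ra takes in equality depended on the draw. Cells with Il2rb had 52.6 CPM of Il7r, against 98.8 CPM in cells without, a log2 ratio of -0.91 (-2.11 to 0.12), with 7 cells that had both against a product of 8.80. In the same cells, Il2ra and Il2rb were found together in 66 cells, against a product of 42.4. Whether that excess differs from the counts for Il7r was not tested.

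Il2rg, the partner of Il7r, gave 106.5 CPM of Il7r in Treg cells with it and 76.1 CPM in those without, a log2 ratio of 0.49 (-0.26 to 1.23), with 20 cells that had both against a product of 14.98. In Tconv the values were 298.4 and 260.5 CPM, a log2 ratio of 0.20 (-0.14 to 0.53), with 93 cells against 87.7. Few Tconv cells had a private IL-2 chain. The 9 Tconv cells with Il2ra held 2 UMIs of Il7r, too few to compare. The 17 Tconv cells with Il2rb held 647.1 CPM of Il7r, against 271.3 CPM in those without, a log2 ratio of 1.25 (0.24 to 2.11), but its 11 UMIs came from 4 cells, 1 of which held 7.

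**Figure D4:**
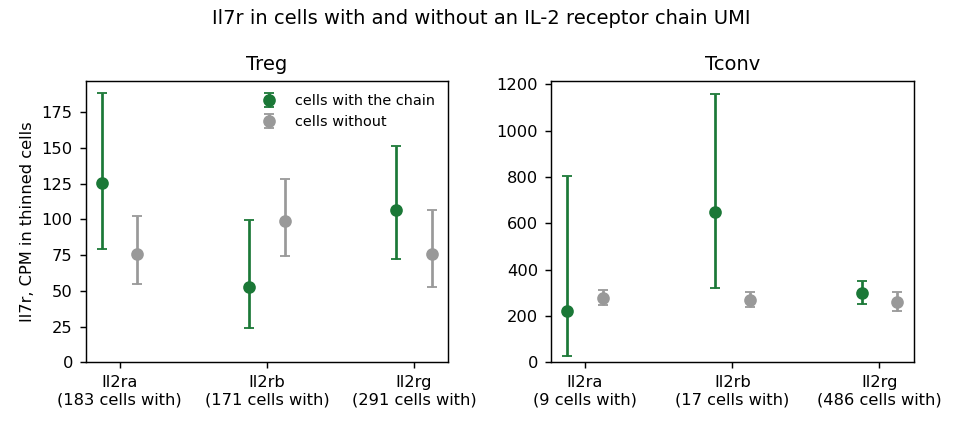
Il7r in CPM in cells with and without a UMI of each IL-2 receptor chain, after thinning to 1000 UMIs per cell, with Treg and Tconv apart and 95% Poisson intervals for counting error only. In Treg the intervals for cells with and without Il2ra overlap, at 125.7 and 75.7 CPM.

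Effector and memory T cells are commonly told from resting ones by genes of migration and adhesion such as S100a4, S100a6, Itgb1 and Cd44. Cells were put in ranges by their summed thinned UMIs of a list of 25 such genes, which holds no cytokine receptor of the set. In Treg, Il7r was at 45.8 CPM in cells with 0 effector UMIs, 48.4 CPM with 1 to 2, 135.1 CPM with 3 to 5 and 150.4 CPM with 6 or more, ranges that held 17.8%, 39.2%, 25.1% and 18.02% of the thinned Treg cells. The share of cells with Il7r was 4.58%, 2.77%, 7.03% and 8.27% over the same ranges. Il7r was higher in the Treg cells with the most effector UMIs than in those with none, by a log2 ratio of 1.72 (0.35 to 3.32) on 20 and 6 UMIs.

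That difference was fragile. Another thinning draw gave 1.19 with an interval that includes equality (-0.26 to 2.84), and leaving S100a4, S100a6 and Itgb1 out of the list gave 0.54 (-0.97 to 2.04). Ranges of 5 or more over 0 to 1 UMIs gave 2.68 (1.60 to 3.91), and unthinned cells gave 2.69 (0.78 to 5.77). The ratio was positive in all 10 alternatives, from 0.54 to 2.69, but 2 of those intervals include equality. The ranges cut a continuum, with 47 Treg cells at 5 effector UMIs and 32 at 6, just below and just above the limit.

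In Tconv, no gradient of Il7r was detectable after thinning. It was at 320 CPM in cells with 0 effector UMIs, 277.99 CPM with 1 to 2, 213.99 CPM with 3 to 5 and 329.1 CPM with 6 or more, ranges that held 22.6%, 48.4%, 21.9% and 7.13% of the thinned Tconv cells. The share of cells with Il7r was 20%, 18.7%, 13.99% and 20.3%. The cells with 6 or more over those with 0 gave a log2 ratio of 0.04 (-0.66 to 0.69), while unthinned cells gave -0.98 (-1.40 to -0.57). Without thinning, the range of a cell also depends on its depth, and the part of depth in that value was not tested. The same limit holds for the unthinned value in Treg. Whether the relation of Il7r to effector UMIs differs between the 2 libraries was not tested.

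**Figure D5:**
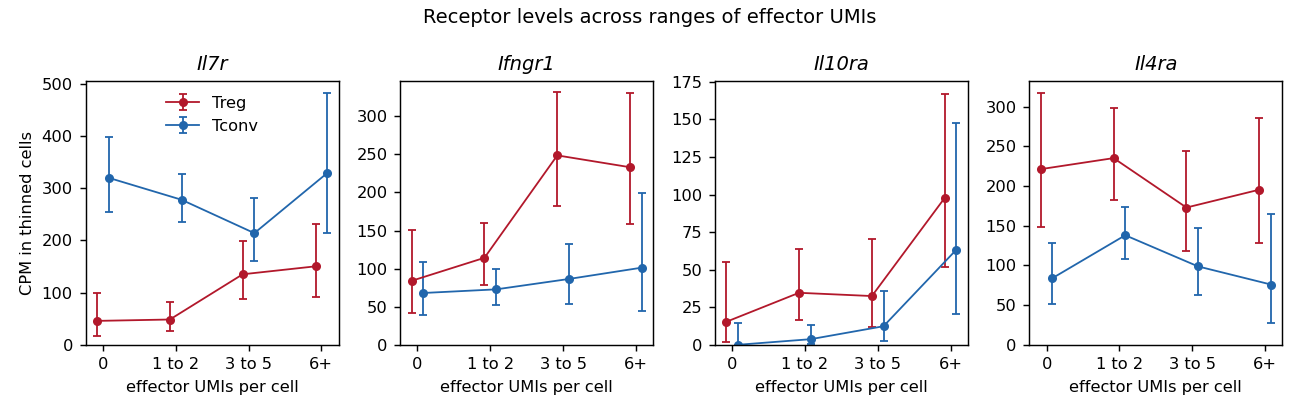
Il7r and other receptor genes in CPM by range of effector UMIs per thinned cell, low to high, with Treg and Tconv apart and 95% Poisson intervals for counting error only. Il7r in Treg is at 45.8, 48.4, 135.1 and 150.4 CPM over the 4 ranges, and in Tconv it stays between 213.99 and 329.1 CPM.

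Of the other measured members, Ifngr1 alone had an interval above equality in Treg cells rich in effector transcripts. Among the 6 members with at least 20 thinned UMIs in the compared Treg cells, 3 were at least 2-fold higher with 6 or more effector UMIs than with 0 (Il7r, Il21r and Ifngr1), against 10.6% of 2298 genes, and 0 were at least 2-fold lower, against 6.31%. Their median log2 ratio was 0.996, against 0.09 over those genes. Il7r, with 20 and 6 UMIs, and Il21r, with 19 and 8, reached the minimum mainly through the top range. The count and the median are therefore no result about the members as a group. Ifngr1 was at 83.97, 114.2, 248.6 and 233.1 CPM over the 4 ranges, a log2 ratio of 1.47 (0.44 to 2.61) that stayed between 0.97 and 1.70 in 10 alternatives. Il21r was at 142.9 CPM in the top range and 61.1 CPM in the lowest, a log2 ratio of 1.23 (-0.03 to 2.63). Il10ra, under the minimum of 20 UMIs, had 13 UMIs in the top range and 2 in the lowest, a log2 ratio of 2.68 (0.54 to 5.87) that was 1.29 (-0.37 to 3.63) in unthinned cells. Il6st, also under the minimum, went the other way with 4 and 10 UMIs, a log2 ratio of -1.34 (-3.47 to 0.45). Il18r1 had 4 UMIs in each of these ranges, and Il1rl1 had 4 and 3. The intervals of Il27ra (0.77, -0.38 to 1.98), Il4ra (-0.18) and Il6ra (-0.02) include equality.

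In Tconv, 0 of 6 measured members were at least 2-fold higher in the top effector range, against 8.59% of 2538 genes, and 0 at least 2-fold lower, against 7.96%, with a median log2 ratio of 0.43 against 0.08. Il18r1 had 7 UMIs in the top range and 1 in the lowest, and Il10ra had 5 and 0. Il6st had 0 UMIs in the top range and 15 in the lowest, and Il1rl1 had 0 and 2. These 4 members were under the minimum of 20 UMIs.

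Grouping by Treg identity gave no order for Il7r. Treg cells were put in the same ranges by 17 Treg signature genes, such as Foxp3, Ctla4 and Ikzf2. Il7r was found in 4.51%, 5.83%, 5.5% and 4.40% of cells over the 4 ranges, low to high. The top range held 82.4 CPM and the lowest 52.6 CPM, a log2 ratio of 0.65 (-0.73 to 2.18), so no relation was detectable. Ifngr1 was lower in each higher range, at 270.7, 165.9, 130 and 120.9 CPM, a log2 ratio of -1.16 (-2.00 to -0.36). In the lowest range the highest cell held 9 of the 36 Ifngr1 UMIs, and the ratio without that cell was not tested. Ifngr1 was found in 15.8%, 11.7%, 11.5% and 10.99% of cells over the ranges. The intervals of the lowest and top shares overlapped. The share of cells of other types was 10.5% in the lowest range and 3.85% in the top range, and its part in the Ifngr1 difference was not tested.

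By 15 genes of resting T cells, such as Ccr7 and Klf2, many of them targets of FOXO1 as Il7r is, Il7r in Treg was at 86.96, 133.97, 90.2 and 41.7 CPM over the 4 ranges, low to high. The log2 ratio of the ends was -1.06 (-2.71 to 0.71). In Tconv it was at 333.3, 260.3, 246.1 and 300.4 CPM, a log2 ratio of -0.15 (-1.16 to 1.09). Neither interval left out equality.

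Read the other way, the 38 thinned Treg cells with Il7r held 4711 CPM of the effector list, against 3789 CPM in the 700 without, a log2 ratio of 0.31 (0.09 to 0.53). They held 3053 CPM of the resting list, against 4253 CPM, a log2 ratio of -0.48 (-0.76 to -0.21). Foxp3 was at 263.2 CPM in Treg cells with Il7r and 400 CPM in those without, a log2 ratio of -0.60 (-1.68 to 0.30). Among single effector genes, S100a4 was at 394.7 and 160 CPM, a log2 ratio of 1.30 (0.42 to 2.09), while the intervals of S100a6 (-0.18, -1.07 to 0.59), Itgb1 (0.49, -0.27 to 1.16) and Ahnak (0.62, -0.48 to 1.55) include equality. These sums pool many UMIs of few cells, and clumping within cells is not in their intervals.

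In Tconv, the 200 cells with Il7r and the 908 without it did not differ in these lists beyond counting error. The effector list was at 2085 and 2205 CPM, a log2 ratio of -0.08 (-0.24 to 0.07), and the resting list at 6015 and 5867 CPM, a log2 ratio of 0.04 (-0.06 to 0.13). Klf2, a FOXO1 target that keeps T cells recirculating, was higher in Tconv cells with Il7r than in those without, at a log2 ratio of 0.46 (0.15 to 0.76).

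The genes whose UMIs followed those of Il7r most closely over thinned cells were weakly related to it. In Treg, Pearson's r on log values over 738 cells was highest for Mndal (0.16), Ccs, Polr2f, Trim34a and Ppp1r12a and lowest for Rpl3 (-0.12), Foxo1, Bcl11b, Ldha and Jund, among 3267 genes. In Tconv, over the thinned cells and 2882 genes, it was highest for Crlf3 (0.15), Rps18, Tmem229b, Rpl12 and Paics and among the lowest for Actg1 (-0.13), Cnn2, 2310036O22Rik and Cd48. The top 5 of the libraries shared 0 genes, as did the lowest 5. The SD of r over all genes was 0.04 in Treg and 0.03 in Tconv.

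Other chains of cytokine receptors were read from a list of 28, of which 13 had at least 20 UMIs. Of these, 2 were at least 2-fold higher in Treg (Il10rb and Il15ra) and 0 lower, against the 8.61% and 3.6% of all genes given above, with a median log2 ratio of 0.45, against 0.14. Il10rb, the partner of Il10ra, was at 80.4 CPM in Treg and 35.5 CPM in Tconv, for a log2 ratio of 1.18 (0.74 to 1.63), so both IL-10 receptor chains were higher in Treg. Ifngr2, the partner of Ifngr1, named after its values were seen, was at 0.13 (-0.32 to 0.58). Il15ra, which binds IL-15 together with Il2rb and Il2rg, had 32 UMIs in Treg and 8 in Tconv, for a log2 ratio of 2.45 (1.30 to 3.78). Ifnar1 and Ifnar2, the type I interferon receptor, were at 0.59 (0.30 to 0.88) and 0.09 (-0.33 to 0.51), Crlf2, part of the TSLP receptor with Il7r, at 0.50 (0.09 to 0.92), and Il17ra at -0.45 (-0.74 to -0.16).

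Downstream of the receptors, 1 of 11 JAK and STAT genes was at least 2-fold higher in Treg and 0 lower, near the shares of all genes (8.61% and 3.6%), with a median log2 ratio of 0.56. Stat5a, a transducer of IL-2 and IL-7 signals, was at 61.3 CPM in Treg and 27.96 CPM in Tconv, for a log2 ratio of 1.13 (0.64 to 1.64). Stat5b, Stat2 and Stat3 were at 0.63, 0.98 and 0.37, and Jak1 at -0.16. Of 14 measured inhibitors of cytokine signalling, 5 were at least 2-fold higher in Treg and 1 lower, against 8.61% and 3.6% of all genes, with a median of 0.35. Cish, a STAT5 target that inhibits IL-2 receptor signalling, was at 115.1 CPM in Treg and 16.98 CPM in Tconv, for a log2 ratio of 2.76 (2.22 to 3.34). Socs2, at 4.79, Socs1, at 1.92, and Socs5, at 2.09, were also higher, as was Pias3 (1.71), while Socs7 was lower (-1.03); the last pair was named after its values were seen. Socs3, an inhibitor of gp130 signalling, was at 0.32, and the phosphatases Ptpn1 and Ptpn6 at 0.18 and -0.01.

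Of 18 genes known as targets of STAT proteins or of IL-7, 8 were at least 2-fold higher in Treg and 1 lower, against 8.61% and 3.6% of all genes, with a median log2 ratio of 0.55. Bcl2l1, which encodes the survival protein BCL-XL, was at 36.1 CPM in Treg and 4.49 CPM in Tconv, for a log2 ratio of 3.01 (1.97 to 4.21), and the kinase gene Pim1 was at 1.60 (1.39 to 1.81). Mcl1, Myc and Ccnd2 were at 0.48, 0.42 and -0.07. Bcl2, the survival gene commonly linked to IL-7, was at 146.4 CPM in Treg and 163.8 CPM in Tconv, for a log2 ratio of -0.16 (-0.42 to 0.09), so it did not show the lower level of Il7r; it was named after its values were seen. The 1 lower gene was Pim2, at -1.52, also named after its values were seen. Cish, Socs1 and Socs2 stand in both lists.

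The lists used for the ranges differed between the libraries as well. Of 15 resting T cell genes, 0 were at least 2-fold higher in Treg and 5 lower, against 8.61% and 3.6% of all genes, with a median log2 ratio of -0.44. Igfbp4 was at -3.10, Dapl1 at -3.20, Actn1 at -1.18, Rasgrp2 at -1.34 and Ccr7, named after its values were seen, at -1.11, while Satb1 was at -0.88 and Txnip at 0.53. Of 21 measured effector genes, 8 were at least 2-fold higher and 1 lower, against the same shares of all genes, 8.61% and 3.6%, with a median of 0.78, led by Itgae (4.87), S100a4 (2.93), S100a6 (2.68) and Ahnak (1.96). Il7r was thus lower in the library with more effector transcripts, while within the Treg library it was not lower in the cells rich in them.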

How the data were processed

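Single spleen CD4+ T cells were encapsulated with inDrops, per the labels' protocols. The authors deposited 1 table of raw UMI counts per gene and cell, with 23725 genes, 2116 cells and a largest value of 368; 9003 genes had no UMI. TopHat2, SAMtools and the build mm10 are named in the submitters' processing notes, without roles or versions. How UMIs were counted, on which annotation, and which cells were kept is not given in the sources used here. Cells were grouped by the codes in their titles; all columns of cells were used, and no cell was removed from the main sums.

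The 10 members and the gene lists, 269 entries in 23 lists of which 7 were not matched, were chosen with earlier results of these data known. UMIs were summed per library and scaled to CPM over all genes. Sums have exact Poisson intervals, ratios exact conditional intervals and shares exact Clopper-Pearson intervals, all at 95%, which cover counting error only. With 1 library per group, no test was made; a gene that reached 20 UMIs with the libraries added counted as measured, and 2-fold as a difference. Where a group had no UMI, 3 counts over that group stood in as its floor. Shares, pairs and ranges were computed after each cell was drawn down to 1000 UMIs without replacement. Scrublet in scanpy 1.11.5 marked 1 Treg and 12 Tconv cells as doublets; they were kept, and left out in an alternative.

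All members and IL-2 receptor chains are named, and of each other list up to 4 genes with the most UMIs and up to 4 with the interval bound farthest from 0; others are marked where they appear. For likeness to Il7r, the 5 genes with the highest and the 5 with the lowest r were named, among genes with a mean of at least 0.05 thinned UMIs per cell. Some genes that these rules name are not reported here. Python 3.11.15, NumPy 2.4.6, SciPy 1.17.1, pandas 2.3.3 and Matplotlib 3.10.9 were used, with edgeR 4.0.16 in R 4.3.3 for the TMM factors alone. The scripts were tested on simulated data. Gene positions are from GENCODE vM21. Alternatives covered scaling, cell weights, thinning, doublets, deep cells, cells of other types, the ranges, the lists and the UMI minimum; those without shared barcodes, without the top Il7r cell and with Itgae out of the signature list were added after the data were seen.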

Additional observations from a re-analysis of the deposited data

How the results depend on the processing

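Over 58 results, 85.7% of the recomputed values stayed within the counting interval or, for counts of genes, within 1.5 times the count; 44 moved beyond it and 0 reversed a called direction. The log2 ratio of Il7r in Treg over Tconv stayed between -1.89 and -1.64 in 9 alternatives. Members at least 2-fold higher in Treg numbered 2 with each cell at equal weight, where Il1rl1 was at 1.56, and 2 in thinned cells, where Ifngr1 was at 1.10, against 1 as reported; Il1rl1 was at 2.17 in thinned cells on 12 and 4 UMIs. With a minimum of 50 UMIs, genes at least 2-fold higher numbered 1 of the other receptor chains, 3 inhibitors and 0 ligands, against 2, 5 and 1, since fewer genes are then measured. Thinning to 500 UMIs turned the log2 ratio of Il7r in Treg to -1.32 over the signature ranges, -1.48 by Il2ra and -2.36 by Il2rb, on 1, 2 and 1 Il7r UMIs in the upper cells, and unthinned Tconv cells gave -0.98 over the effector ranges; the cause was not tested. Cells with Il7r were 2.89% of Treg and 10.7% of Tconv at 500 UMIs, and 7.48% and 23.5% without thinning. No paired analysis was possible because each group is 1 library and the numbers in the titles only number cells. For the same reason no library could be left out. Depth limits the sparse members most, above all Il1rl1, Il18r1 and Il10ra in Tconv.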

Other observations

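Transcripts of the ligands of these receptors were almost absent from both libraries. Of 17 cytokine genes, 9 had no UMI in either library, among them Il2, Il6 and Il33. Ebi3, a subunit of IL-27 and IL-35, was the only ligand gene with 20 UMIs over both libraries, with 18 in Treg and 2 in Tconv, for a log2 ratio of 3.62 (1.56 to 6.77). Il7, which stromal cells are known to make, had 12 UMIs in Treg and 7 in Tconv, for a log2 ratio of 1.23 (-0.24 to 2.81).

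Of 10 genes known to accompany Il1rl1 in tissue Treg cells, 3 were measured. Of these, 2 were at least 2-fold higher in Treg and 0 lower, against 8.61% and 3.6% of all genes, with a median log2 ratio of 1.10. Gata3 was at 228.2 CPM in Treg and 106.4 CPM in Tconv, for a log2 ratio of 1.10 (0.85 to 1.36), the integrin gene Itgae at 4.87 (2.93 to 7.97) and Batf at 0.70 (0.12 to 1.28), while Klrg1 had 17 UMIs in Treg and none in Tconv cells. Of 5 measured genes known to accompany Il18r1 in type 1 T cells, 2 were at least 2-fold higher in Treg and 0 lower, against the same 8.61% and 3.6%. Hopx was at 80.4 CPM in Treg and 19.5 CPM in Tconv, for a log2 ratio of 2.05 (1.51 to 2.61), Ccl5 at 1.14 (0.32 to 2.0), Cxcr3 at 0.53 (-0.20 to 1.26) and Runx3 at -0.70 (-1.17 to -0.25).

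The other cell type lists, with sums in Treg and then in Tconv, were plasma cell at 17.03 and 199.2 CPM, erythroid at 151.2 and 0 CPM, plasmacytoid dendritic at 111.7 and 45.9 CPM, dendritic at 43.6 and 23.97 CPM and CD8 or NK at 51.8 and 72.4 CPM. A single cell held nearly all plasma cell UMIs of Tconv, and a single cell nearly all erythroid UMIs of Treg. In each case 2 cells of that library held 3 or more UMIs of the list, so these sums do not describe the libraries at large. The innate-like T list was at 41.5 and 55.4 CPM, platelet at 10.9 and 2.0 CPM and mast cell at 4.77 and 0.999 CPM.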
